A study of Mus musculus with 12 samples.

Results

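The 35 genes described here encode subunits of the mitochondrial respiratory chain and ATP synthase, the machinery of oxidative phosphorylation. They were taken from a fixed list of names, 13 encoded in mitochondrial DNA and 22 encoded in the nucleus, and all 35 were found among the 22195 genes summed from the files. All 35 also passed the filter on low counts, which left 13478 genes for testing. RNA came from whole skin tumours grown from the mouse melanoma line Yumm2.1 under the skin of immunocompetent C57BL/6J mice, and the labels give no other strain, tumour line or allele. Treatment began at a tumour volume of 20 to 50 mm3 and consisted of isotype control IgG, anti-B7-H3, anti-PD1, or anti-B7-H3 with anti-PD1 (the combination), with 3 libraries in each of the 4 groups. The libraries were made from total RNA after ribosomal RNA depletion, and the labels give neither the time of sampling nor whether each library is a mouse of its own, so p-values measure the spread between these libraries. The design text states an aim of describing immune cells in the tumours, and it names no question about mitochondria.

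Oxidative phosphorylation passes electrons from NADH and succinate through complexes I to IV to oxygen and uses the proton gradient so made to drive ATP synthase (complex V). Mitochondrial DNA encodes core subunits of complexes I, III, IV and V, while complex II and most other subunits are encoded in the nucleus and imported. Both strands of mitochondrial DNA are transcribed along their length into long precursors that are cut at the tRNAs. mt-Nd6 is the only protein gene read from the strand opposite to the other 12, so its reads, set beside those of the rest, show how the strands are represented. DNA carried over into a library would be expected to give all 13 genes a like density of reads.

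The mitochondrial genes lie head to tail on the circular chromosome M, and some overlap. These overlaps are shown because reads from them could be given to either gene, and how such reads were shared was not stated in the sources used here. The sequences are transcripts of GENCODE M21 on GRCm38, written 5′ to 3′ on the gene's own strand, with the overlap in capitals.
mt-Atp8 into mt-Atp6, chrM:7907-7969, plus strand, overlap of 43 bases: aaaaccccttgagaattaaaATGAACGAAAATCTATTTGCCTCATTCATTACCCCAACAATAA
mt-Nd4l into mt-Nd4, chrM:10147-10173, plus strand, overlap of 7 bases: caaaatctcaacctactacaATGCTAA
end of mt-Nd5, chrM:13532-13565, plus strand, overlap of 14 bases: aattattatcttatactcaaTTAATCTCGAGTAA
end of mt-Nd6, chrM:13552-13585, minus strand, overlap of 14 bases: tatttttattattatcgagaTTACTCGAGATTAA
The last pair runs tail to tail, so the capitals of mt-Nd6 are the reverse complement of those of mt-Nd5. A library that does not keep strand would add RNA copied from the opposite strand to the reads of mt-Nd6, and likewise to its neighbours. The strand setting of the read assignment was not stated in the sources used here, so mt-Nd6 reads and opposite-strand reads over it cannot be told apart.

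The first 60 bases of mt-Nd6 and of its neighbour mt-Nd5 show how differently the strands are composed, with every G in capitals.
start of mt-Nd6, chrM:14011-14070, minus strand: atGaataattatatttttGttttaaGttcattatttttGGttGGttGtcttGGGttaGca
start of mt-Nd5, chrM:11742-11801, plus strand: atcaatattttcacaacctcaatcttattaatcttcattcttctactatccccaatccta
Over its whole length of 519 bases mt-Nd6 is 28.1% G and 5.97% C. The other 12 genes hold 5.88% (mt-Atp8) to 16.1% G (mt-Co1) and 22.1% (mt-Nd3) to 29.97% C (mt-Nd4l).

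The libraries differed between groups in more than treatment, and these differences touch every result below. Totals ran from 3593110 to 21298142 reads. A set of 12 satellite-like genes took 90.3% to 93.7% of matched reads in isotype control, 68.7% to 74.5% under anti-PD1, 30.1% to 34.0% under the combination and 0.0944% to 0.222% under anti-B7-H3. They were chosen for at least 0.45% of matched reads in every isotype control library, so a high share there is partly fixed by the choice. The name is only a label, and whether these genes hold satellite sequence was not tested. Background was read from 1489 chemoreceptor genes, which tumours are not expected to transcribe, at 7.18 to 8.16, 5.24 to 5.66, 0.675 to 0.802 and 0.0870 to 0.102 reads per kilobase in the same order. The share of reads outside the satellite-like genes that this background accounts for was 18.3% to 19.1% in isotype control and at most 0.0989% under anti-B7-H3. Background, satellite-like reads and group therefore move together, and their part in the results was not tested except where a background-subtracted value is given. The background subtracted is that of nuclear genes, so reads from mitochondrial DNA stay in the counts. Replicates of a group differed by little more than counting noise, with a median chi-square of 0.546 to 0.861 over 12 pairs against 0.455 for noise and 2.04 to 14.5 over 54 pairs from different groups.

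The mitochondrially encoded members were lower, on the normalised scale, in each treated group than in isotype control, and their order of abundance changed. In whole tumours, fewer cells of a type and less RNA per cell cannot be told apart. Reads from mitochondrial DNA carried over into a library would also count here, and their part in these levels was not tested. The 3 comparisons with isotype control share its libraries, so their values are given side by side. Levels below are normalised CPM, reads over the TMM-scaled library size. The summed level of the 13 genes was 13693 ± 379 (SD, n = 3) in isotype control, 8575 ± 225 under anti-PD1, 5032 ± 183 under the combination and 4424 ± 196 under anti-B7-H3. The ranges of the 4 groups did not overlap. Before scaling the order differed, since isotype control libraries held 34832 to 42880 mitochondrial reads, anti-PD1 65011 to 70515, combination 51477 to 58875 and anti-B7-H3 55161 to 56655. As a share of reads outside the satellite-like genes they made up 2.72% ± 0.118 in isotype control, 2.57% ± 0.0468 under anti-PD1, 1.76% ± 0.0637 under the combination and 1.503% ± 0.0624 under anti-B7-H3. The share under anti-PD1 overlapped that in isotype control (exact permutation test, two-sided p = 0.20), and the other pairs compared did not overlap (exact p = 0.10, the smallest that 3 against 3 libraries allow).

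**Figure D1:**
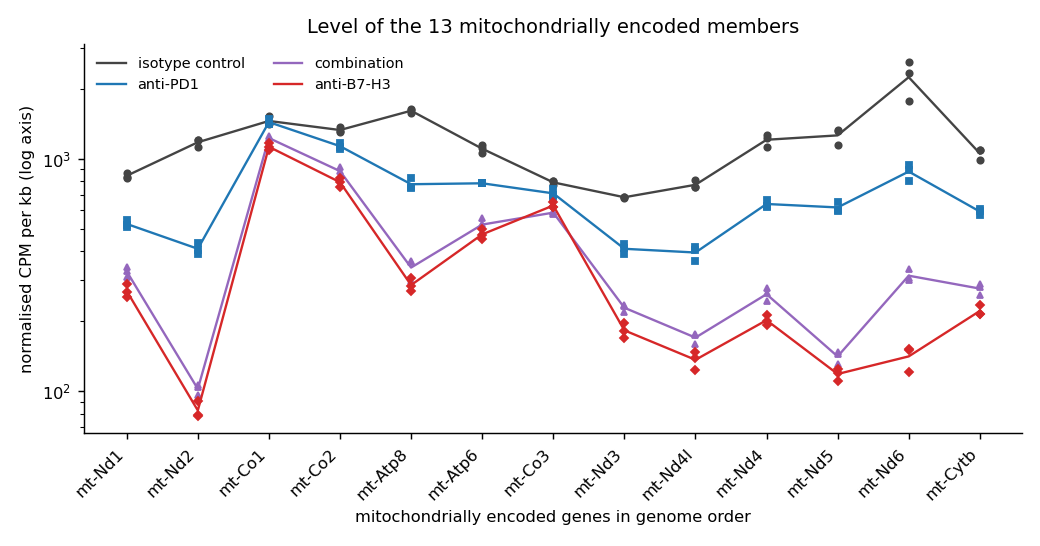
Normalised CPM per kilobase (log axis) of the 13 mitochondrially encoded genes in genome order, with a point for each library and a line through the mean of each antibody group. Isotype control libraries are fairly level with a peak at mt-Nd6, while anti-B7-H3 and combination libraries peak at mt-Co1 and are lowest at mt-Nd2.

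mt-Nd6, a membrane subunit of complex I, was the member with the largest fall under anti-B7-H3. Its normalised CPM was 917, 1220 and 1359 in isotype control, 417, 490 and 465 under anti-PD1, 156, 174 and 159 under the combination and 63.0, 78.2 and 78.5 under anti-B7-H3. The 4 groups did not overlap, and isotype control was both the highest and the most spread. The reads behind these levels were 2966 to 3658 in isotype control, 3523 to 3902 under anti-PD1, 1684 to 1933 under the combination and 841 to 985 under anti-B7-H3. Against isotype control, mt-Nd6 fell by 3.99 ± 0.165 (SE) on the log2 scale under anti-B7-H3 (adjusted p = 2.65e-08), by 1.35 ± 0.146 under anti-PD1 (adjusted p = 9.51e-05) and by 2.84 ± 0.155 under the combination (adjusted p = 3.02e-07). Adjusted p-values of single genes are from edgeR's quasi-likelihood test with Benjamini-Hochberg adjustment over all 13478 genes.

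mt-Nd5 is the complex I subunit encoded next to mt-Nd6 on the opposite strand. Its normalised CPM was 2082, 2398 and 2421 in isotype control, 1100, 1186 and 1092 under anti-PD1, 269, 263 and 239 under the combination and 202, 228 and 219 under anti-B7-H3. The groups did not overlap, although combination and anti-B7-H3 lay close together. It fell by 3.41 ± 0.0622 (SE) on the log2 scale under anti-B7-H3, fell by 1.03 ± 0.0569 under anti-PD1 and fell by 3.16 ± 0.0616 under the combination, each against isotype control (adjusted p = 8.45e-52, 7.12e-24 and 1.36e-49, edgeR). mt-Nd2, a further membrane subunit of complex I, read 1245, 1254 and 1169 in isotype control, 403, 420 and 453 under anti-PD1, 110, 108 and 99.8 under the combination and 81.9, 93.8 and 81.3 under anti-B7-H3. It, too, was ordered without overlap. Its log2 fold changes were -3.84 ± 0.0572 (SE), -1.52 ± 0.0514 and -3.53 ± 0.0565 under anti-B7-H3, anti-PD1 and the combination (adjusted p = 8.19e-59, 4.29e-36 and 3.13e-56, edgeR).

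The 3 catalytic core subunits of complex IV, mt-Co1, mt-Co2 and mt-Co3, moved least among the mitochondrial members. mt-Co1, which carries the haem and copper centre where oxygen is reduced, had a normalised CPM of 2360, 2211 and 2173 in isotype control, 2173, 2302 and 2191 under anti-PD1, 1946, 1892 and 1856 under the combination and 1682, 1809 and 1728 under anti-B7-H3. Anti-PD1 overlapped isotype control, whereas combination and anti-B7-H3 lay below both. Its log2 fold change against isotype control was -0.37 ± 0.0586 (SE) under anti-B7-H3 (adjusted p = 9.54e-08), -0.02 ± 0.0586 under anti-PD1 (adjusted p = 0.846) and -0.24 ± 0.0586 under the combination (adjusted p = 0.000263, edgeR). With the satellite-like genes left out the combination value was 0.03, with no filter on low counts it was 0.06, and without combination replicate 2 it was -0.15 (adjusted p = 0.0873). With no filter on low counts the anti-B7-H3 value was -0.06 (adjusted p = 0.38). The anti-PD1 value passed in both directions under other settings, at -0.59 with background subtracted (adjusted p = 2.5e-10), 0.16 without the satellite-like genes (adjusted p = 0.0112) and 0.15 with no filter on low counts (adjusted p = 0.0313, edgeR).

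mt-Co3 read 631, 628 and 603 in isotype control, 538, 550 and 582 under anti-PD1, 461, 465 and 454 under the combination and 485, 509 and 487 normalised CPM under anti-B7-H3. Here the combination was lowest, and the groups did not overlap. The log2 fold changes against isotype control were -0.33 ± 0.0486 (SE) under anti-B7-H3, -0.16 ± 0.0489 under anti-PD1 and -0.43 ± 0.0489 under the combination (adjusted p = 1.39e-08, 0.00749 and 5.91e-12, edgeR). The anti-PD1 call was lost without combination replicate 2 (-0.10, adjusted p = 0.154) or without anti-B7-H3 replicate 1, 2 or 3 (adjusted p = 0.133, 0.134 and 0.146) or with only these 2 groups in the fit (adjusted p = 0.292), and the anti-B7-H3 call was lost without the satellite-like genes (-0.10, adjusted p = 0.0863) or with no filter on low counts (-0.02, adjusted p = 0.792). In reads before scaling, mt-Co3 was more abundant under anti-B7-H3 (6109 to 6471) than in isotype control libraries (1569 to 2041).

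All 13 mitochondrial members fell under anti-B7-H3 against isotype control at an adjusted p under 0.05, where 64.1% of all genes tested were called and 33.3% were called lower. Their median log2 fold change was -2.25 (range -3.99 to -0.33) beside -0.04 over all genes. In anti-PD1, 12 of 13 fell (mt-Co1 did not pass), with a median of -0.83 beside -0.04, where 38.3% of genes were called and 20.9% were called lower. In the combination 13 of 13 fell, with a median of -1.93 beside -0.01, where 57.3% of genes were called and 29.5% were called lower. By complex, the 7 subunits of complex I had medians of -2.58, -0.97 and -2.21 under anti-B7-H3, anti-PD1 and the combination. The complex III subunit mt-Cytb, cytochrome b, stood at -2.25, -0.83 and -1.93, and the pair of ATP synthase subunits mt-Atp6 and mt-Atp8 had medians of -1.86, -0.77 and -1.67. The complex IV subunits had medians of -0.37, -0.16 and -0.43. Subtracting the expected background from every count moved the median of all genes to 0.26, 0.15 and 0.24 and that of the 13 members to -3.08, -1.41 and -2.73. The members' own counts hardly changed, since 86.2 of 38368 mitochondrial reads per isotype control library on average were expected from background. Their median therefore moved through the library scaling. Reads from mitochondrial DNA are not removed by this subtraction. All 13, mt-Co1 included, were then called lower under anti-PD1. mt-Co1 then stood at -1.19, -0.59 and -1.04 and mt-Co3 at -1.15, -0.73 and -1.23.

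Within complex V the overlapping genes behaved unequally. mt-Atp8, whose end lies in the 43-base overlap printed above, changed by -2.49, -1.05 and -2.25 on the log2 scale under anti-B7-H3, anti-PD1 and the combination, and mt-Atp6, which continues the same transcript, by -1.23, -0.50 and -1.09. In the other overlapping pair the values lay close together, with -2.50, -0.97 and -2.19 for mt-Nd4l and -2.58, -0.92 and -2.21 for mt-Nd4.

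**Figure D2:**
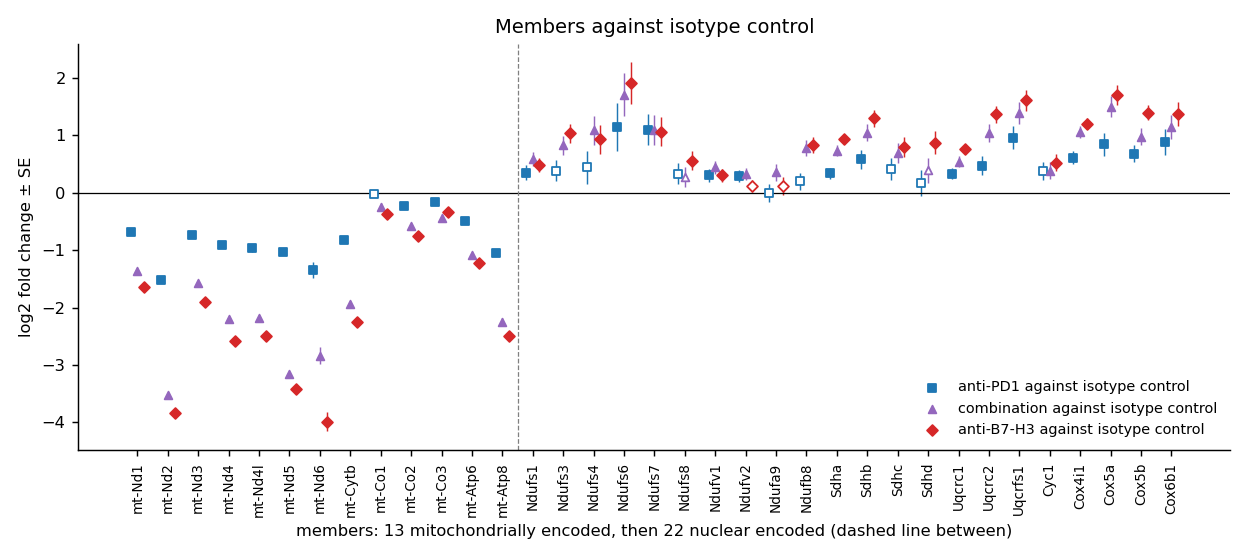
Log2 fold change against isotype control with its standard error for the 35 members, under anti-PD1 (squares), combination (triangles) and anti-B7-H3 (diamonds); filled symbols passed an adjusted p of 0.05 and open symbols did not. Mitochondrial members lie at or below 0, nuclear members at or above it, and mt-Co1, mt-Co2 and mt-Co3 are nearest to 0 among the mitochondrial ones.

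The composition of mitochondrial reads gives the same contrast without any library scaling. mt-Co1, mt-Co2 and mt-Co3 together took 27.6% ± 1.72 (SD, n = 3) of mitochondrial reads in isotype control, 41.4% ± 0.303 under anti-PD1, 58.9% ± 0.789 under the combination and 62.8% ± 0.544 under anti-B7-H3. mt-Nd6 took 8.48% ± 1.45, 5.33% ± 0.297, 3.24% ± 0.214 and 1.65% ± 0.154 in the same order. By reads per kilobase mt-Nd6 ranked highest of the 13 in every isotype control library, at position 3 in every anti-PD1 library, at 6 to 7 under the combination and at 10 to 11 under anti-B7-H3.

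Set against the median of the other 12 genes, mt-Nd6 reads per kilobase stood at a log2 ratio of 0.97 ± 0.305 (SD, n = 3) in isotype control, 0.49 ± 0.0880 under anti-PD1, 0.07 ± 0.103 under the combination and -0.80 ± 0.136 under anti-B7-H3. No pair of groups compared overlapped. mt-Nd6 was thus above the typical plus-strand gene in isotype control and below it under anti-B7-H3. Against mt-Nd5 alone the order was another, with log2 ratios of 0.82 ± 0.176, 0.51 ± 0.0854, 1.15 ± 0.112 and 0.25 ± 0.103 in the same order, and the combination was then highest.

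The spread over the 13 genes, as the SD of log2 reads per kilobase within a library, was 0.480 ± 0.0486 in isotype control, 0.566 ± 0.0111 under anti-PD1, 1.02 ± 0.0148 under the combination and 1.14 ± 0.0240 under anti-B7-H3 (SD over libraries, n = 3). The ratio of the highest to the lowest gene was 3.29 ± 0.653, 3.68 ± 0.171, 12.03 ± 0.396 and 13.7 ± 0.665. Read density was therefore most even in isotype control libraries and least even under anti-B7-H3. With the effective lengths of the files in place of gene lengths, the difference in spread between anti-PD1 and isotype control was -0.01 where it had been 0.09.

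Even density and a high mt-Nd6 moved with the nuclear background described above, and its part in them was not tested. mt-Nd6 reads per kilobase exceeded chemoreceptor reads per kilobase 827-fold ± 143 in isotype control, 1299-fold ± 27.5 under anti-PD1, 4777-fold ± 225 under the combination and 18835-fold ± 1116 under anti-B7-H3 (SD, n = 3).

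The log2 ratio of summed mitochondrial to summed nuclear members, in reads per kilobase, was 5.28 ± 0.0388 in isotype control, 4.04 ± 0.0800 under anti-PD1, 2.92 ± 0.0575 under the combination and 2.56 ± 0.0293 under anti-B7-H3 (SD, n = 3). Over the 4 measures (mt-Nd6 ratio, spread, share and this ratio) 20 comparisons of 3 against 3 were made, and the Benjamini-Hochberg adjusted exact p was 0.105 for 19 of them and 0.200 for the share under anti-PD1 against isotype control. A test over all 4 groups, added after the data were seen, compared the 15400 ways to divide 12 libraries into 4 groups of 3. It gave an exact permutation p of 6.5e-05, the smallest it can give, for 3 measures and 0.00013 for the share (adjusted over the 4 measures, 8.7e-05 and 0.00013). So small a p was foreseeable from ranges already seen to be mostly apart, and it adds no support to them. The test asks only whether the groups differ, and they also differ in background and satellite-like reads.

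**Figure D3:**
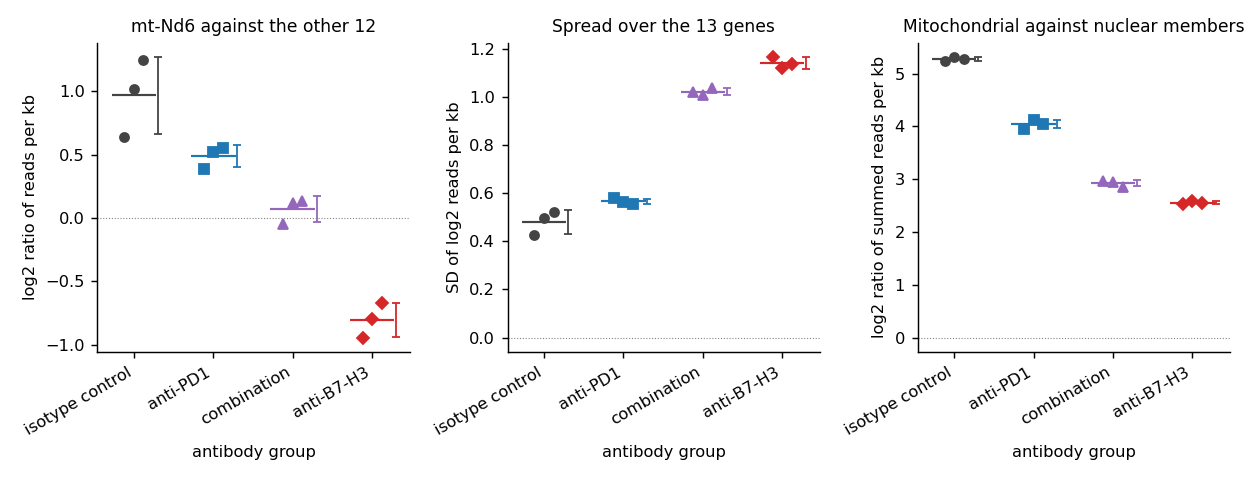
Measures within each library by antibody group, with a point for each library, a line at the mean and a bar of 1 SD: log2 ratio of mt-Nd6 to the median of the other 12 mitochondrial genes, SD of log2 reads per kilobase over the 13 genes, and log2 ratio of summed mitochondrial to summed nuclear members. From isotype control through anti-PD1 and combination to anti-B7-H3 the ratios are lower at each step and the spread is higher.

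The 22 nuclear encoded members went the other way. Their summed level was 306 ± 8.04 normalised CPM (SD, n = 3) in isotype control, 413 ± 11.96 under anti-PD1, 514 ± 6.62 under the combination and 562 ± 12.2 under anti-B7-H3, with no overlap between groups. The reads behind them were few in isotype control, at 743 to 993 per library, of which 133 to 151 were expected from background. Anti-PD1 libraries held 3156 to 3578 against 96.9 to 105 expected, combination 5132 to 6273 against 12.5 to 14.8, and anti-B7-H3 6943 to 7339 against 1.61 to 1.89.

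**Figure D4:**
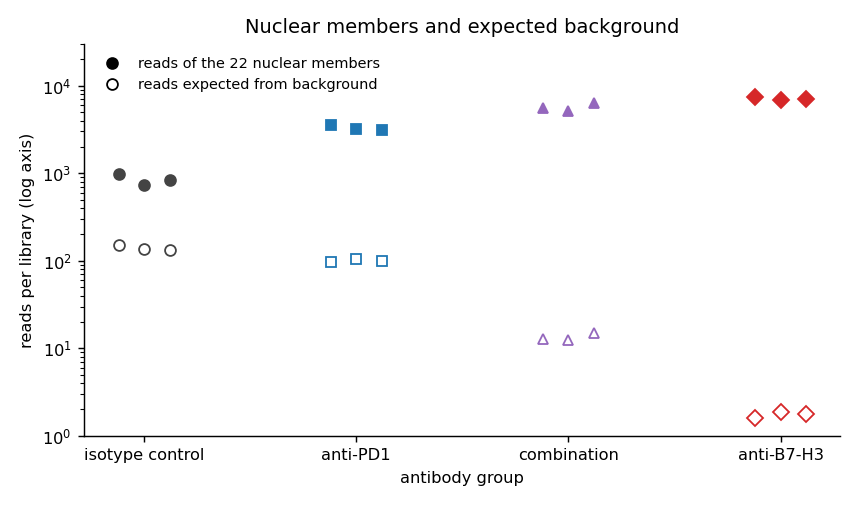
Reads per library (log axis) of the 22 nuclear members together (filled) and the reads expected from chemoreceptor background over the same lengths (open), by antibody group. The filled and open points are nearest in isotype control and farthest apart under anti-B7-H3.

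In anti-B7-H3 against isotype control 20 of the 22 rose and none fell, where 30.8% of all genes tested were called higher, with a median log2 fold change of 0.93 beside -0.04. Ndufa9 and Ndufv2 did not pass. In anti-PD1 14 rose and none fell (17.5% of genes called higher), with a median of 0.40 beside -0.04, and without isotype control replicate 2 that count was 8. In the combination 20 rose and none fell (27.8% of genes called higher), with a median of 0.80 beside -0.01.

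These counts depend on background. With the expected background subtracted from every count, 10 rose and 1 fell (Ndufv2) under anti-B7-H3, 2 rose under anti-PD1 (Ndufs6 and Uqcrfs1), and 6 rose and 1 fell (Ndufv2) under the combination. The nuclear medians were then 0.41, 0.11 and 0.24, beside medians of all genes of 0.26, 0.15 and 0.24. Those that rose under anti-B7-H3 in that fit were Cox4i1, Cox5a, Cox5b, Cox6b1, Ndufs3, Ndufs6, Sdha, Sdhb, Uqcrc2 and Uqcrfs1. Among genes with at least 5 times their expected background, 7 nuclear members rose under anti-PD1.

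Complex I takes electrons from NADH, and 8 of its 10 nuclear members rose under anti-B7-H3, 5 under anti-PD1 and 9 under the combination, with medians of 0.69, 0.34 and 0.68. The shares of all genes called higher were 30.8%, 17.5% and 27.8%. With background subtracted, Ndufs6 was called higher in each and Ndufs3 only under anti-B7-H3. Ndufv2 was then called lower under anti-B7-H3 and the combination. Ndufs6, a small subunit needed late in assembly, had the largest log2 fold change of the nuclear members under anti-B7-H3 and the combination. Its normalised CPM was 0.927, 1.60 and 1.86 in isotype control, 4.62, 2.39 and 2.37 under anti-PD1, 4.35, 4.74 and 4.92 under the combination and 5.39, 5.79 and 4.97 under anti-B7-H3. Isotype control lay below all others. These rest on 3, 4 and 5 reads in the isotype control libraries, 12 in all, with 7.84 expected from background, so the fold is poorly bounded. The log2 fold change was 1.90 ± 0.365 (SE) under anti-B7-H3, 1.14 ± 0.415 under anti-PD1 and 1.70 ± 0.377 under the combination (adjusted p = 5.9e-06, 0.0238 and 8.41e-05, edgeR). The anti-PD1 call was lost without anti-PD1 replicate 1 (0.72, adjusted p = 0.223), isotype control replicate 1 (0.85, adjusted p = 0.166) or isotype control replicate 2 (1.21, adjusted p = 0.0513). It was also lost over genes with 5 times background (1.03, adjusted p = 0.0634, edgeR).

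Ndufa9, an accessory subunit that stabilises the junction of the complex's arms, had the smallest change under anti-B7-H3. Its normalised CPM was 12.7, 12.002 and 16.4 in isotype control, 12.8, 12.2 and 15.9 under anti-PD1, 17.96, 17.3 and 17.1 under the combination and 15.2, 15.8 and 13.2 under anti-B7-H3. Isotype control, anti-PD1 and anti-B7-H3 overlapped, and only the combination lay above the rest. The log2 fold change against isotype control was 0.11 ± 0.155 (SE) under anti-B7-H3 (adjusted p = 0.544), -0.01 ± 0.164 under anti-PD1 (adjusted p = 0.983) and 0.35 ± 0.152 under the combination (adjusted p = 0.0423, edgeR). The combination call was lost without isotype control replicate 1 or 2 (0.27 and 0.26) or any of anti-PD1 replicates 1, 2 and 3 (each 0.33). It was also lost with DESeq2 size factors (adjusted p = 0.0709), with only the compared groups (adjusted p = 0.0765) and over genes with 5 times background (0.15, adjusted p = 0.434), and with background subtracted the value was -0.09. Of its 115 isotype control reads, 25.7 were expected from background.

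Ndufs8, which holds iron-sulphur clusters on the path to ubiquinone, had the smallest change under the combination. It stood at 9.58, 12.8 and 8.91 normalised CPM in isotype control, 13.9, 12.7 and 12.4 under anti-PD1, 12.7, 11.8 and 12.9 under the combination and 15.5, 16.9 and 13.2 under anti-B7-H3. Anti-B7-H3 lay above isotype control and the combination and overlapped anti-PD1, and the other 3 groups overlapped one another. The log2 fold changes were 0.56 ± 0.166 (SE) under anti-B7-H3 (adjusted p = 0.00274), 0.33 ± 0.177 under anti-PD1 (adjusted p = 0.136) and 0.27 ± 0.173 under the combination (adjusted p = 0.174, edgeR). With background subtracted they were 0.01, -0.02 and -0.25. Among the other iron-sulphur and catalytic subunits, Ndufs7 changed by 1.06, 1.10 and 1.09, Ndufs1 by 0.48, 0.35 and 0.58, and Ndufv1, the flavin subunit that binds NADH, by 0.31, 0.30 and 0.44 under anti-B7-H3, anti-PD1 and the combination, and all of these passed. With background subtracted none of these 3 was called in any of the comparisons, and Ndufv1 stood at -0.27, -0.08 and -0.12.

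Complex II, succinate dehydrogenase, is the only complex with no mitochondrially encoded subunit. All 4 of its members rose under anti-B7-H3, with a median log2 fold change of 0.90, where 30.8% of all genes were called higher. With background subtracted, Sdha and Sdhb were called higher there, and Sdhc and Sdhd were not called. Under the combination only Sdhb was then called, and under anti-PD1 none. Sdha, the flavin subunit that oxidises succinate, stood at 31.7 ± 2.59 normalised CPM (SD, n = 3) in isotype control and 60.6 ± 2.03 under anti-B7-H3, a log2 fold change of 0.93 ± 0.0885 (SE). Sdhb, its iron-sulphur partner, rose by 1.29 ± 0.144 under anti-B7-H3, 0.58 ± 0.162 under anti-PD1 and 1.04 ± 0.149 under the combination. Sdhd, a membrane anchor, rose by 0.87 ± 0.199 under anti-B7-H3 and did not pass under anti-PD1 (0.17, adjusted p = 0.58, edgeR) or the combination (0.39, adjusted p = 0.113, edgeR).

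Complex III passes electrons from ubiquinol to cytochrome c. Its 4 nuclear members rose under anti-B7-H3 and under the combination (medians 1.06 and 0.79), and 3 rose under anti-PD1 (median 0.42). The shares of all genes called higher were 30.8%, 27.8% and 17.5% in that order. Uqcrfs1, the Rieske iron-sulphur protein, was highest among them at 1.61 ± 0.180 (SE), 0.96 ± 0.202 and 1.39 ± 0.187 under anti-B7-H3, anti-PD1 and the combination. mt-Cytb, the mitochondrially encoded subunit of this complex, had values of the other sign. With background subtracted, Uqcrfs1 was called higher in each comparison and Uqcrc2 under anti-B7-H3 and the combination. Uqcrc1 and Cyc1 were then called in none.

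The nuclear members of complex IV had the highest median of any complex, 1.38 under anti-B7-H3, 0.76 under anti-PD1 and 1.10 under the combination, and all 4 rose in each. Of all genes tested, 30.8%, 17.5% and 27.8% were called higher. With background subtracted, all 4 were called higher under anti-B7-H3, none under anti-PD1, and only Cox4i1 and Cox5a under the combination. Cox4i1, an early assembling structural subunit, stood at 28.6 ± 6.78 normalised CPM in isotype control, 44.3 ± 4.57 under anti-PD1, 60.2 ± 2.59 under the combination and 66.8 ± 2.16 under anti-B7-H3 (SD, n = 3). Cox5a rose by 1.70 ± 0.175 (SE), 0.84 ± 0.201 and 1.495 ± 0.181 on the log2 scale, and Cox5b, which binds zinc, by 1.39 ± 0.133, 0.68 ± 0.149 and 0.98 ± 0.140 in the same order. The mitochondrially encoded core of the same complex stood at medians of -0.37, -0.16 and -0.43.

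Promoters of nuclear respiratory genes are known for sites of the factors NRF1 and GABPA, and 2 are shown because they come from members that rose together. RefSeq promoters of GRCm38.p6, 250 bases before to 50 after the start, were matched for 17 of the 22 nuclear members. Capitals mark matches of GCGCANGCG, the core of the NRF1 motif, on either strand.
Sdha, chr13:74350191-74350490, minus strand: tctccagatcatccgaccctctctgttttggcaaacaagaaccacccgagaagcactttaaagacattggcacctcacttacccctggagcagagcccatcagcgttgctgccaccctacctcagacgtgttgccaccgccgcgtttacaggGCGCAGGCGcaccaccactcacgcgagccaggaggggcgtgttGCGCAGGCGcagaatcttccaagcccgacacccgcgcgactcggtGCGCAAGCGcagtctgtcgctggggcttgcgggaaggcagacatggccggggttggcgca
Ndufs6, chr13:73328433-73328732, minus strand: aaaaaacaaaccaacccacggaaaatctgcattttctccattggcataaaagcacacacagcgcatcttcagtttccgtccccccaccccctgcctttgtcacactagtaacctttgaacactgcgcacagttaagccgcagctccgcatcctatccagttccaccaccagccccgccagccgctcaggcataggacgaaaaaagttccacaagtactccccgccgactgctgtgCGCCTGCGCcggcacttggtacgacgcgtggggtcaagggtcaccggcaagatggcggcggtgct
The Sdha promoter holds 3 matches and the Ndufs6 promoter 1. The motif occurred in 4 of the 17 promoters (23.5%; Sdha, Ndufs6, Sdhd and Uqcrc1) and in 6.25% of all 32851 promoters. The GABPA motif CCGGAAG, on either strand, occurred in 5 of 17 (29.4%; Ndufs3, Ndufs8, Sdhb, Sdhd and Cox6b1) and in 8.86% of all, and the 2 motifs share no match. A match describes letters and is no evidence of binding.

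Adding anti-PD1 to anti-B7-H3 was compared directly. Against anti-B7-H3 alone, 11 of 13 mitochondrial members were higher under the combination and none lower, where 39% of genes were called and 19.8% were called higher, with a median log2 fold change of 0.28 beside 0.01 over all genes. mt-Nd6 rose most, by 1.15 ± 0.160 (SE, adjusted p = 0.000407, edgeR), and the other 12 lay between -0.10 (mt-Co3) and 0.37 (mt-Nd4). mt-Co1 and mt-Co3 did not pass (0.13, adjusted p = 0.0801, and -0.10, adjusted p = 0.0767). mt-Co1 passed as higher under 5 of 24 alternatives, with background subtracted, with only the compared groups, without the satellite-like genes, and without isotype control replicate 1 or 2. mt-Co3 passed as lower under 6 of 24, with DESeq2 size factors, the DESeq2 Wald test, only the compared groups, the replicate block (adjusted p = 0.0268), and without isotype control replicate 1 or 2. mt-Nd2 rose by 0.31 ± 0.0568 and mt-Nd5 by 0.25 ± 0.0587.

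Of the nuclear members 7 were lower and 1 was higher under the combination than under anti-B7-H3, where 19.1% of genes were called lower, and the median was -0.20. Those lower were Cox5b (-0.41 ± 0.0799, SE), Uqcrc2, Uqcrc1, Sdha, Sdhb, Sdhd and Ndufs8, and Ndufv2 was higher (0.21 ± 0.0743). With background subtracted, 5 were called lower (Cox5b, Uqcrc2, Uqcrc1, Sdha and Sdhd) and Ndufv2 higher. Sdhb and Ndufs8 were then not called (adjusted p = 0.0613 and 0.111, edgeR). The Ndufs8 call (-0.28) was lost without anti-B7-H3 replicate 1 or 2 (-0.25 and -0.19) or without combination replicate 1, 2 or 3 (-0.30, -0.23 and -0.31). It was also lost with an effective-length offset (adjusted p = 0.0735) or without the satellite-like genes (adjusted p = 0.0673, edgeR). Ndufs6 stood at -0.20 (adjusted p = 0.425) and Ndufa9 at 0.24 (adjusted p = 0.0503, edgeR). Ndufa9 passed as higher under 11 of 24 alternatives, with only the compared groups, without the satellite-like genes, with nuclear-gene scaling, over genes with 5 times background, and without anti-B7-H3 replicate 2 (0.30) or any 1 of the isotype control or anti-PD1 libraries (0.24 to 0.25).

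Markers of other tissues moved with this comparison, where 19.8% of all genes were called higher and 19.1% lower. All 15 skeletal muscle markers rose under the combination, with summed levels of 14.8 to 17.0 normalised CPM under anti-B7-H3 and 367 to 376 under the combination, and Myh4, Myl1, Tnnc2 and Pvalb were at 0 under anti-B7-H3. In the same comparison the median log2 fold change was 0.28 for mitochondrial members and -0.20 for nuclear members. Of 11 macrophage markers 10 fell, from 2518 to 2538 down to 1257 to 1267 normalised CPM. Their part in the members' differences was not tested.

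**Figure D5:**
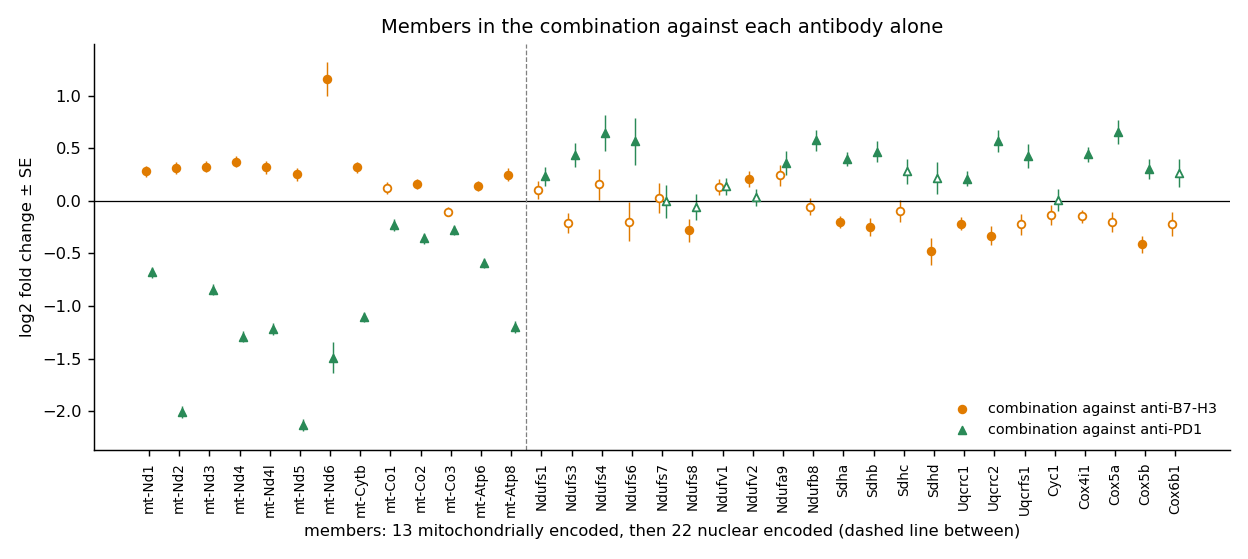
Log2 fold change with its standard error of the 35 members under the combination against anti-B7-H3 (circles) and against anti-PD1 (triangles); filled symbols passed an adjusted p of 0.05. Mitochondrial members lie below 0 against anti-PD1 and mostly just above 0 against anti-B7-H3, where mt-Nd6 stands highest.

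The reverse addition, of anti-B7-H3 to anti-PD1, was compared next. All 13 were lower under the combination than under anti-PD1, where 46.5% of genes were called and 23.4% were called lower, with a median of -1.10 and a range of -2.13 (mt-Nd5) to -0.23 (mt-Co1) beside -0.00 over all genes. mt-Nd2 fell by 2.004 ± 0.0545 (SE), mt-Nd6 by 1.49 ± 0.150 and mt-Co3 by 0.28 ± 0.0471. The mt-Co1 call was lost with no filter on low counts (-0.09, adjusted p = 0.19).

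Of the nuclear members 14 were higher and none lower, where 23.1% of genes were called higher, with a median of 0.33. Cox5a rose by 0.65 ± 0.113 (SE), Ndufb8 by 0.57 ± 0.0972, Uqcrc2 by 0.57 ± 0.104 and Cox4i1 by 0.44 ± 0.0708. With background subtracted, 6 rose (Cox4i1, Cox5a, Ndufb8, Sdha, Sdhb and Uqcrc2). Ndufs6 rose by 0.56 ± 0.223, a call lost without anti-PD1 replicate 2 or 3 (0.39 in each) or combination replicate 3 (0.55), and Ndufa9 by 0.36 ± 0.112, lost without anti-PD1 replicate 1 or 2 (0.30 and 0.27). The Ndufs6 call was also lost with the DESeq2 Wald test (adjusted p = 0.0685). In edgeR it was lost with an effective-length offset (adjusted p = 0.183) and over genes with 5 times background (adjusted p = 0.0704). With background subtracted neither Ndufs6 nor Ndufa9 was called (adjusted p = 0.215 and 0.196, edgeR). Ndufs8 stood at -0.06 (adjusted p = 0.729, edgeR). Here 13 of 15 muscle and 11 of 11 macrophage markers rose as well, with summed muscle levels of 150 to 160 normalised CPM under anti-PD1, and their part was not tested.

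The interaction asked whether the combination departs from what the single antibodies add up to on the log2 scale. It was positive and called for 11 of 13 mitochondrial members (36.4% of genes called, 19.1% called higher), with a median of 1.15 beside 0.04 over all genes, so the combination was less low than the sum. mt-Nd6 had the largest value at 2.50 ± 0.217 (SE, adjusted p = 2.16e-05), followed by mt-Nd2 at 1.83 ± 0.0764. mt-Co1 (0.14, adjusted p = 0.177) and mt-Co3 (0.06, adjusted p = 0.556) did not pass in edgeR. With background subtracted both passed (0.75 and 0.66), so that 13 of 13 were called, and over genes with 5 times background both passed as well (0.26 and 0.17). The mt-Co1 interaction also passed without isotype control replicate 2 (0.17, adjusted p = 0.0245). For nuclear members it was negative and called for 15 of 22 (17.3% of genes called lower), with a median of -0.60, among them Ndufs6 (-1.34), Uqcrfs1 (-1.18) and Cox5b (-1.09). Without anti-PD1 replicate 1 or isotype control replicate 1 the Ndufs6 call was lost (-0.92 and -1.05), and without isotype control replicate 1 or 3 the Ndufs8 call (-0.61) was lost (-0.54 and -0.51). The Ndufs8 call was also lost over genes with 5 times background (-0.49, adjusted p = 0.0594, edgeR). With background subtracted, 5 nuclear members were called lower (Ndufs6, Uqcrfs1, Cox5a, Uqcrc2 and Cox5b) and 1 higher (Ndufv2).

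Other genes of the pathway were counted in the same fit. There, 30.8%, 17.5% and 27.8% of all genes were called higher under anti-B7-H3, anti-PD1 and the combination. Of 26 further complex I subunits 19 rose and none fell under anti-B7-H3 against isotype control (median 0.98), 11 rose and 1 fell under anti-PD1 and 19 rose under the combination. Of 15 ATP synthase subunits tested 15, 9 and 13 rose and none fell, with medians of 0.91, 0.47 and 0.82. Of 8 further complex IV subunits 7, 4 and 6 rose, and of 5 complex III and cytochrome c genes measured 5, 2 and 4. Uqcrq, a small complex III subunit, rose by 2.004 ± 0.203 (SE) and Atp5g3, which encodes the proton-carrying ring of ATP synthase, by 1.79 ± 0.170 under anti-B7-H3. Uqcrq rested on 36 isotype control reads and Atp5g3 on 54, with 5.50 and 9.66 expected from background. Per isotype control library, the further complex I subunits held 556 reads on average with 91.4 expected. ATP synthase subunits held 1217 with 69.3, further complex IV subunits 143 with 15.3, and the complex III and cytochrome c genes 92.7 with 9.17. What background adds to these counts was not tested.

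Lists around the respiratory chain were read against the shares of all genes called, 30.8% higher and 33.3% lower under anti-B7-H3, 27.8% and 29.5% under the combination, and 17.5% and 20.9% under anti-PD1. Of 40 assembly factors tested 10 rose and 4 fell under anti-B7-H3 (median -0.03), below the share of all genes in both directions, with Cox14 at 2.21 and Cox11, a copper chaperone of complex IV, at -2.89. Of 46 mitochondrial ribosomal protein genes 21 rose and 1 fell (median 0.47), and of 18 citric acid cycle genes 13 rose and 1 fell (median 0.66), with fumarase, Fh1, at 1.32 and pyruvate carboxylase, Pcx, at -0.64. In the combination these counts were 8 and 4, 13 and 0, and 15 and 0, and under anti-PD1 3 and 2, 6 and 1, and 12 and 0. Cox14 rested on 8 isotype control reads with 3.95 expected from background, and Cox11 on 97 with 15.2. Fh1 rested on 64 with 34.2 expected and Pcx on 114 with 77.9. The assembly factors held 414 reads per isotype control library on average with 232 expected. What background adds to these changes was not tested.

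Genes that replicate and transcribe mitochondrial DNA were lower where called. Of 16, none rose and 9 fell under anti-B7-H3, 5 under anti-PD1 and 9 under the combination, with medians of -0.85, -0.49 and -0.78. Polg2, the accessory subunit of the mitochondrial DNA polymerase, stood at -2.26 under anti-B7-H3, on 46 isotype control reads with 24.6 expected from background. The list held 341 reads per isotype control library on average with 173 expected from background, and what background adds to its fall was not tested. Of 17 genes for mitochondrial RNA processing and stability 5 rose and 5 fell under anti-B7-H3, near the share of all genes in each direction, with the exonuclease Rexo2 at 1.60 and the helicase subunit Supv3l1 at -0.96. Rexo2 rested on 32 isotype control reads and Supv3l1 on 121, with 15.8 and 51.4 expected from background. Of 10 regulators of mitochondrial biogenesis tested 2 rose and 4 fell, and the coactivator Ppargc1a, at -5.41, had 52 isotype control reads with 45.4 expected from background.

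Cell type markers were checked against the label of a melanoma. Of all genes tested, 30.8% were called higher and 33.3% lower under anti-B7-H3, and 27.8% and 29.5% under the combination. Of 8 melanocyte lineage markers 4 were tested. Under anti-B7-H3 3 of them fell, and the other stood at 0.18 on the log2 scale and was not called. Summed levels of the 8 were 94.7 to 110 normalised CPM in isotype control, 83.8 to 87.5 under anti-PD1, 44.6 to 46.8 under the combination and 25.5 to 28.9 under anti-B7-H3. Dct and Tyrp1 were at 0 under anti-B7-H3. Isotype control libraries held 295 reads of the melanocyte markers on average with 83.3 expected from background. All 11 macrophage markers rose under anti-B7-H3 and under the combination against isotype control, and summed to 325 to 350 and 456 to 480 normalised CPM in isotype control and anti-PD1. Their isotype control reads were 940 per library on average with 164 expected from background. All 15 skeletal muscle markers fell under anti-B7-H3 against isotype control, whose libraries held 792 such reads on average with 951 expected from background. Of 7 brown and beige fat markers 2 were tested, and Ucp1, Cidea, Elovl3 and Cox8b were at 0 under anti-B7-H3. Isotype control libraries held 50.3 reads of these fat markers on average with 57.6 expected from background. The part of these shifts in the members' values was not tested.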

How the data were processed

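Ribosomal RNA depleted total RNA (integrity number of at least 7.0, at least 500 ng) was sequenced, per the labels' protocols. FastQC 0.11.8 and build GRCm38 are named in the submitters' processing notes. The quantifier and its strand setting are not given in the sources used here. The authors deposited, per the file headers, estimated counts (expected counts) of 58083 transcripts with lengths, effective lengths and TPM. The deposited TPM values were not used in tests. Lengths are coding lengths, since 87.3% are multiples of 3.

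Estimated counts were summed per gene through GENCODE M21 (610 transcripts, 1.05%, unmatched) and rounded. They were tested with edgeR 4.0.16 in R 4.3.3 (TMM, filterByExpr, robust quasi-likelihood fit of all 12 libraries, 1 mean per group) with calls at a p under 0.05 after Benjamini-Hochberg adjustment. On simulated data for anti-B7-H3 against isotype control the fit recovered 61.5% of 200 genes changed 2-fold (12356 genes run) and 94.0% of those changed 4-fold (12226 genes run). Every simulated library was drawn from 1 gene profile pooled over the 12, with a fixed dispersion. The groups' differences in satellite-like reads and background were therefore absent, and the recovery is no measure of power in the real comparison. Measures within a library were compared by exact permutation tests. Expected background was chemoreceptor reads per kilobase times coding length. Satellite-like genes are the 12 nuclear genes with at least 0.45% of matched reads in every isotype control library. Alternatives included DESeq2 1.42.0.

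Values in every library are given for mt-Nd6, mt-Nd5 and, in each member set, the highest and lowest log2 fold changes of anti-B7-H3 and of the combination against isotype control. Of the other lists, up to 2 called genes per direction with at least 30 reads and the largest change in anti-B7-H3 may be named. The members and lists were chosen with earlier results of these data known. The SE and SD values cover counting error and the spread between these libraries. They do not cover error in the library scaling or in the background estimate.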

Additional observations from a re-analysis of the deposited data

Results flagged for a closer look

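Members differed between libraries with and without anti-B7-H3 by other amounts when anti-PD1 was present. This was read from the test of the interaction itself (edgeR, adjusted p under 0.05). Satellite-like reads and background also differ between the 4 groups, so the antibodies cannot be told apart from them here. The interaction was called for 11 mitochondrially encoded and 15 nuclear encoded members, where 36.4% of all genes tested were called. With background subtracted the nuclear count was 6 and Ndufs8 stood at -0.24 (adjusted p = 0.486, edgeR). Among the members with values in every library, the interaction on the log2 scale was 2.50 for mt-Nd6, 1.83 for mt-Nd2, 1.28 for mt-Nd5, -1.34 for Ndufs6 and -0.61 for Ndufs8. For mt-Nd6 the log2 difference of the combination from anti-PD1 was -1.49, and that of anti-B7-H3 from isotype control -3.99. Skeletal muscle markers were called in the same interaction (15 of 15), and their part was not tested.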

How the results depend on the processing

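All 12 main counts of members called kept within 1.5 times under DESeq2 size factors, the DESeq2 Wald test, no filter, an effective-length offset, satellite-like genes left out, nuclear-gene scaling, a spread that is not robust and the replicate block. The replicate numbers do not pair libraries (same-number correlations of -0.036 to 0.043). With the replicate block the mitochondrial counts were 13, 12, 13, 12, 13 and 11 and the nuclear counts 20, 14, 20, 8, 14 and 15, first for the 3 treated groups against isotype control (anti-B7-H3, anti-PD1, combination), then for the combination against each antibody in the same order, and last for the interaction. With background subtracted the nuclear counts that moved were 11, 2, 7, 6 (combination against anti-PD1) and 6 (interaction), and the anti-PD1 count was 7 over genes with 5 times background. At 2-fold or more the nuclear counts were 10, 2, 9, 0, 0 and 6, and mitochondrial counts that moved were 4 (anti-PD1), 1 and 7 (combination against anti-B7-H3 and anti-PD1). Fewer changes pass a minimum by construction. No filter and the DESeq2 Wald test moved the median of all genes in anti-B7-H3 from -0.04 to -0.78 and -1.08, and that of mitochondrial members to -1.94 and -2.22.

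Leaving out each library in turn gave mitochondrial counts of 13 to 13, 11 to 12, 12 to 13, 9 to 13, 13 to 13 and 11 to 12 and nuclear counts of 19 to 20, 8 to 17, 18 to 21, 6 to 11, 10 to 16 and 11 to 16, likewise ordered. For measures within a library, effective length gave -0.54 for the mt-Nd6 ratio (combination against anti-PD1) and 0.516, -0.00700, 0.408 and 0.415 for the spread (the 3 treated groups against isotype control, then the combination against anti-PD1). Without mt-Nd6 the spread differed by 0.760, 0.181, 0.670, -0.0896 and 0.489 over the 5 comparisons. With background subtracted the share differed by -1.70, -0.473, -1.44 and -0.967 points (the last against anti-PD1) and the mitochondrial to nuclear ratio by -2.95, -1.43 and -2.59. Direction reversed for small values. mt-Co3 in anti-PD1 was 0.0058 with no filter and 0.023 without satellite-like genes, and its interaction -0.12 and -0.088. mt-Co1 in anti-PD1 was 0.0082 with effective length, 0.15 with no filter, 0.036 with the compared groups only and 0.16 without satellite-like genes. Its combination value was 0.058 and 0.025 and its interaction -0.032 and -0.00032 with no filter and without satellite-like genes. Ndufa9 with background subtracted was -0.36 in anti-B7-H3 and -0.094 in the combination, and -0.091 in anti-B7-H3 over genes with 5 times background. Ndufa9 in anti-PD1 was 0.0053 with the DESeq2 Wald test, 0.0067 with effective length, 0.16 with no filter, 0.048 with the compared groups, 0.17 without satellite-like genes and 0.010 with nuclear-gene scaling. Ndufs8 was -0.017 in anti-PD1 and -0.25 in the combination with background subtracted, and against anti-PD1 0.082 with no filter and 0.033 without satellite-like genes. Leaving out a library moved mt-Co1 in anti-PD1 from -0.055 to 0.044, Ndufa9 from -0.14 to 0.13, and Ndufs8 in the combination against anti-PD1 from -0.10 to 0.011. The cause of these changes was not tested. Depth limits the nuclear members most, since isotype control libraries held 743 to 993 of their reads.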
